A study of Mus musculus with 167 samples.

Results

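The miRNA profile of the C3H heart was compared between irradiated and sham mice. C3H mice (C3Hf/Sed/Kam, gnotobiotic) had received whole thorax lung irradiation (WTLI), a single X-ray exposure of the thorax while lead covered everything else, or a sham exposure, and whole heart homogenates were taken in month 4. The members were all heart libraries that the sample labels gave as C3H, 7 irradiated and 8 sham, or 15 of the 167 tissue and blood cell libraries of the series. All 15 came from females that were 10 to 12 weeks old at exposure and had reached the study endpoint, so that the irradiated libraries represent survivors of a dose meant to be lethal for most animals. The mice were anaesthetised for irradiation, and whether this held for the sham mice is not stated. Each library was a separate animal. Titles also marked libraries with A or B. No source explained these letters, which divided the hearts into 4 A and 4 B libraries among the sham and 3 A and 4 B libraries among the irradiated hearts. Reference comparisons used C57 hearts (C57Bl/6, month 6, 5 irradiated and 15 sham, of which 4 and 8 were male and 8 to 10 weeks old at exposure) and the lungs, brains and blood cells of the same C3H animals, 7 irradiated and 8 sham for each but leukocytes, with 6 and 5.

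A miRNA is a short RNA that is cut from a hairpin precursor. One strand, the 5p or the 3p arm, is loaded into an Argonaute protein, and bases 2 to 8 of the mature miRNA, the seed, pair with target mRNAs and lower their stability and translation. The heart is known for a set of muscle miRNAs (miR-1, miR-133, miR-208 and miR-499), some of them lying in myosin genes, and for the endothelial miR-126. MiR-34 genes are known direct targets of p53, the transcription factor activated by DNA damage, and miR-21 is known for its induction in injured and fibrotic tissue.

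Mature sequences from RefSeq (GRCm38.p6) were matched to 25 of the 29 miRNAs that passed the rules for naming, and those that carry the main changes are given with the seed in capitals. The first sequences are the miRNAs that share a seed with another tested miRNA, shown to let the related molecules be compared.
miR-34a-5p: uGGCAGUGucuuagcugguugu
miR-34b-5p: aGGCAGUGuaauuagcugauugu
miR-34b-3p: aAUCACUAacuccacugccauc
miR-34c-3p: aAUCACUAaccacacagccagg
miR-146a-5p: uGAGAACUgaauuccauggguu
miR-146b-5p: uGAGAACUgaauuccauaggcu
miR-10a-5p: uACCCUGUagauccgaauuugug
miR-10b-5p: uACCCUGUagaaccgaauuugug
miR-132-3p: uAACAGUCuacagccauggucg
miR-212-3p: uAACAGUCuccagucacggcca

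The next sequences share their seed with no other tested miRNA that was matched, and are shown because they had large or abundant changes in either direction.
miR-216a-5p: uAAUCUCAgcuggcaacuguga
miR-184-3p: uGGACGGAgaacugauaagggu
miR-21a-5p: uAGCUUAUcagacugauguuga
miR-541-5p: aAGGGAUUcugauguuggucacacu
miR-451a: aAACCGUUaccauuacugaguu
miR-101a-5p: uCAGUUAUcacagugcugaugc

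Total counts per library were 2354453 to 3536878 in sham and 2979360 to 4784251 in irradiated hearts, a difference of 0.26 on the log2 scale (exact permutation test, two-sided, p = 0.0351, adjusted p = 0.0702 over 2 tests) that was 0.08 within letter A and 0.42 within letter B. The number of miRNAs with a count was 513 ± 37.6 (SD, n = 8) in sham and 524 ± 12.5 (SD, n = 7) in irradiated hearts (exact permutation test, two-sided, p = 0.494). MiR-126a-3p and miR-1a-3p led the libraries with 30.5% ± 2.62 and 22.4% ± 3.82 of the counts in sham hearts (SD, n = 8) and 35.2% ± 3.39 and 18% ± 6.77 in irradiated hearts (SD, n = 7). The muscle markers thus fitted the tissue label, with 1 library apart. In the irradiated heart of replicate 3 (letter A) miR-1a-3p made up 4.57% of the counts, against 14% to 23.6% in the other 6 irradiated hearts. The 4 cardiac muscle markers (miR-1a, miR-133a and miR-208a, each as the 3p arm, with miR-499-5p) summed to 50690 RPM there (RPM are counts scaled to the same library total), against 152407 to 246805 RPM in the other irradiated and 216176 to 291001 RPM in the sham hearts. Among the sham hearts, replicate 3 (letter A) held the most leukocyte marker RNA, 10253 RPM against 1065 to 3355 RPM in the others, and the most epithelial marker RNA, 942 RPM against 87.4 to 426 RPM. The main calls and counts are given with and without the library they depended on.

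The first question was which miRNAs differed in the irradiated heart. Of 312 miRNAs that passed the count filter, 21 were called changed (6.73%), that is, the limma adjusted p was below 0.05 and the values differed by 2.25-fold or more. The 15 called higher (4.81%) were led by miR-34c-3p, miR-216a-5p, miR-34c-5p, miR-34b-3p, miR-184-3p and miR-10b-5p, each with a log2 change above 2. The 6 called lower (1.92%) were miR-101a-5p, miR-486a-3p, miR-150-5p, miR-1983, miR-451a and miR-199b-5p. An adjusted p under 0.05 alone was reached by 52 miRNAs (16.7%), 32 higher (10.3%) and 20 lower (6.41%). The RPM of the irradiated and sham groups did not overlap for 13 miRNAs (4.17%), 10 of them called. The median log2 change of all miRNAs tested was -0.03, and was -0.17 when voom used the library size alone. Without the irradiated heart of replicate 3, 17 of the same 21 miRNAs were called and no others, and 40 miRNAs had an adjusted p under 0.05. Without the sham heart of replicate 3 there were 19 calls (15 higher, 4 lower), 18 of them among the 21. All changes below are log2 changes of quantile-normalised values from irradiated minus sham, and RPM are of the library total.

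**Figure D1:**
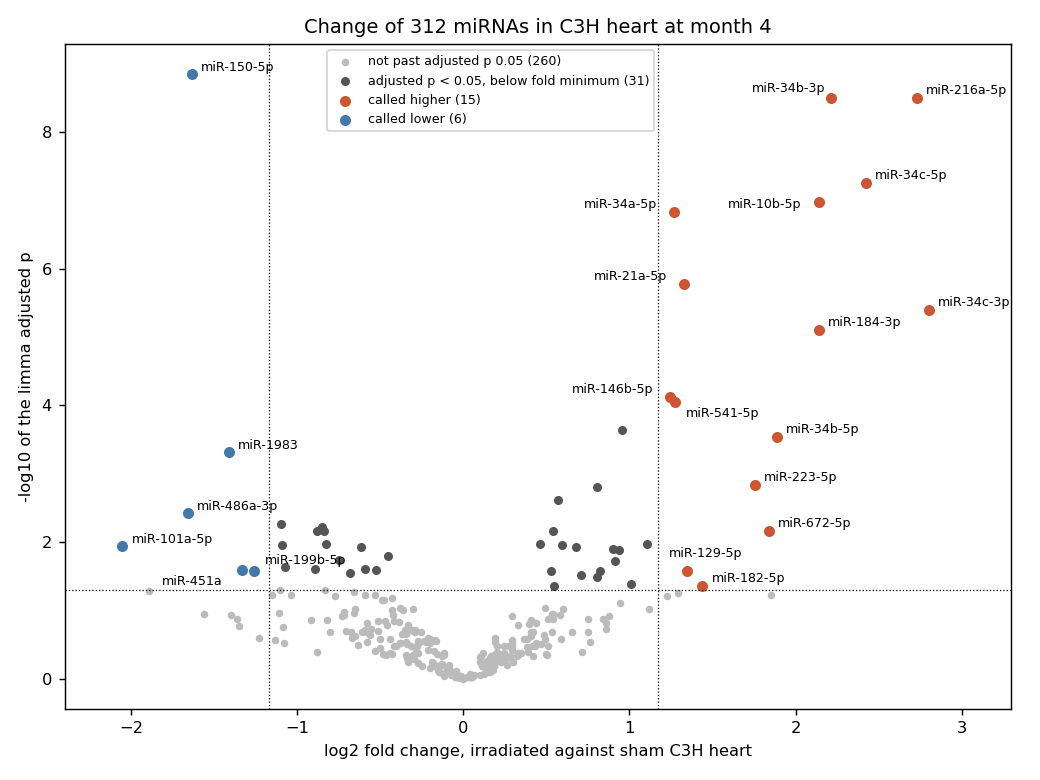
Log2 fold change (x axis, irradiated against sham C3H heart) and -log10 of the limma adjusted p (y axis) for 312 miRNAs, 1 point each, with dotted lines at the adjusted p of 0.05 and the fold minimum. The 15 miRNAs called higher lie to the upper right, led by miR-216a-5p and the miR-34 family, and the 6 called lower to the left, with miR-150-5p at the smallest adjusted p of all.

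The miR-34 genes, which p53 induces and which repress cell cycle and survival genes, were listed together with miR-449. Of the 11 miRNAs listed, 5 passed the filter, all of them arms of miR-34a, miR-34b and miR-34c. The 3p arms of miR-34b and miR-34c have another seed than miR-34a-5p. These 5 were called higher (4.81% of all miRNAs), with a median log2 change of 2.21 against -0.03 for all miRNAs tested. MiR-34a-5p (chr4:150068473-150068494, plus strand, in no annotated host gene), the most abundant member in sham hearts, was at 189, 243 and 261 RPM (lowest, median and highest) in sham and at 414, 571 and 702 RPM in irradiated hearts. Every irradiated heart was above every sham heart, and the log2 change was 1.27 (SE 0.16, limma adjusted p = 1.47e-07). It was 1.42 within letter A and 1.09 within letter B.

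MiR-34b and miR-34c are cut from hairpins 451 bases apart, which lie on the minus strand within an intron of Btg4, a gene of the opposite strand. MiR-34c-5p ranged over 50.7, 72.3 and 141 RPM in sham hearts and 158, 392 and 627 RPM in irradiated hearts (lowest, median, highest), with no overlap. Its log2 change was 2.43 (SE 0.29, limma adjusted p = 5.55e-08), 1.94 in letter A and 2.75 in letter B. The less abundant arms moved in the same direction. MiR-34c-3p (chr9:51103044-51103065) was at 0.894, 4.21 and 5.65 RPM in sham and 12.8, 19.7 and 34.9 RPM in irradiated hearts, a change of 2.80 (SE 0.42, limma adjusted p = 4.03e-06) that rested on 3 to 20 counts per sham library and 38 to 167 counts per irradiated library. MiR-34b-3p (chr9:51103574-51103595) was at 1.70, 2.78 and 5.37 RPM in sham and 6.28, 13 and 15.8 RPM in irradiated hearts, a change of 2.21 (SE 0.23, limma adjusted p = 3.14e-09). For both of these arms all 7 irradiated hearts exceeded all 8 sham hearts.

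MiR-34b-5p (chr9:51103610-51103632) was the exception to that separation. It was at 5.28, 8.84 and 44.1 RPM in sham and at 4.88, 42.8 and 72.2 RPM in irradiated hearts, and 3 of 7 irradiated hearts exceeded all sham hearts. The irradiated heart of replicate 3 was the lowest of all 15, and the sham heart of replicate 3 the highest of its group. The log2 change of 1.89 (SE 0.37, limma adjusted p = 0.000292) was 2.26 without irradiated replicate 3, and in the letter A hearts alone it was 0.88 (limma adjusted p = 0.288). MiR-34b and miR-34c are also known from ciliated epithelium, and both arms of each, summed with the ciliated cell marker miR-449a-5p, were at 61.9 to 200.2 RPM in sham and 184 to 724 RPM in irradiated hearts. Irradiated replicate 3 was the lowest irradiated heart in that sum. The epithelial markers of the miR-200 family showed no call (0 of 5, log2 changes of -0.92 to -0.34), and their sum was 87.4 to 942 RPM in sham and 30.7 to 237 RPM in irradiated hearts. MiR-449a-5p alone did not pass the filter. The part of cell composition in the miR-34b and miR-34c change was not tested, and in whole homogenates a change in the number of cells of a type cannot be told apart from a change in RNA per cell.

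Of 8 listed miRNAs linked to inflammation and fibrosis, 5 were tested. An adjusted p under 0.05 was reached by 3, all higher (10.3% of all miRNAs), and 2 of these were called (4.81% of all miRNAs). MiR-21a-5p (chr11:86584120-86584141, minus strand, in an exon of Vmp1), one of the most studied miRNAs of cardiac fibrosis, was at 6944, 8763 and 10188 RPM in sham and at 7915, 17366 and 26221 RPM in irradiated hearts. In 6 of 7 irradiated hearts it exceeded all sham hearts, and replicate 3 was below the sham median. The log2 change was 1.33 (SE 0.19, limma adjusted p = 1.68e-06), and 1.42 without that library. MiR-21a-5p was the only call among the 46 tested miRNAs with a mean of 1000 RPM or more. The change stayed below the fold minimum under edgeR (1.14), DESeq2 (1.14), voom with TMM factors (1.10) and voom with library size alone (0.98). Its other arm, miR-21a-3p, rose by 0.82 (SE 0.27, limma adjusted p = 0.0269) from a mean of 6.06 to 8.61 RPM, without reaching the fold minimum. Without irradiated replicate 3 it did not pass (0.74, limma adjusted p = 0.0706), nor did it with edgeR or DESeq2.

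MiR-146a-5p and miR-146b-5p share the seed GAGAACU and are known as NF-kB-induced brakes on Toll-like receptor signalling. MiR-146b-5p (chr19:46342790-46342811, plus strand, in an intron of Mfsd13a) was at 37.8, 50.9 and 60.1 RPM in sham and 52.3, 106 and 187 RPM in irradiated hearts, a change of 1.24 (SE 0.22, limma adjusted p = 7.47e-05). The change was 0.83 within letter A and 1.48 within letter B. It missed the fold minimum in the letter A hearts alone (0.84) and with library size alone (1.14). Irradiated replicate 3 was again the 1 library that lay within the sham range. MiR-146a-5p (chr11:43374435-43374456, minus strand, in no annotated host gene) was more abundant, at 407, 513 and 725 RPM in sham and 743, 856 and 1136 RPM in irradiated hearts. Its groups did not overlap, and its change of 0.96 (SE 0.18, limma adjusted p = 0.000229) was below the fold minimum. MiR-155-5p, the inflammatory miRNA of activated leukocytes, had a log2 change of 0.11 (limma adjusted p = 0.649).

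The myeloid miR-223 gave unlike values for its arms. The minor arm miR-223-5p (chrX:96242842-96242864, plus strand) rose from 1.41, 3.74 and 6.93 RPM in sham to 7.72, 8.99 and 24.4 RPM in irradiated hearts, with no overlap (log2 change 1.76, SE 0.39, limma adjusted p = 0.00144). Irradiated replicate 3 held the highest value, and without it the change was 1.43. The change was 2.74 within letter A and 0.72 within letter B. The major arm miR-223-3p had means of 249 RPM in sham and 190.4 RPM in irradiated hearts (log2 change -0.30, SE 0.30, limma adjusted p = 0.458).

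MiR-216a-5p, miR-10b-5p and miR-184-3p had large changes with no overlap. MiR-216a-5p (chr11:28757018-28757039, plus strand, in an intron of the lincRNA gene Gm12082), best known from pancreatic acinar cells, was at 2.52, 4.65 and 6.56 RPM in sham and 8.14, 29.1 and 39.3 RPM in irradiated hearts. Its change of 2.73 (SE 0.28, limma adjusted p = 3.14e-09) was alike within the letters, 2.55 and 2.75. It rested on 7 to 22 counts per sham and 35 to 139 counts per irradiated library. None of the other 5 acinar miRNAs listed (miR-216a-3p, both arms of miR-216b and of miR-217) passed the filter. MiR-10b-5p (chr2:74726074-74726096, plus strand, in introns of Hoxd3 and Hoxd4) was at 34.3, 72.9 and 83.5 RPM in sham and 134, 259.6 and 333 RPM in irradiated hearts, a change of 2.14 (SE 0.26, limma adjusted p = 1.06e-07). MiR-10a-5p, which has the same seed and lies in another Hox cluster, had means of 149.8 and 176.5 RPM (log2 change 0.23, SE 0.25, limma adjusted p = 0.507). MiR-184-3p (chr9:89802263-89802284, minus strand, in no annotated host gene), known from the lens and cornea, was at 4.47, 8.35 and 13 RPM in sham and 20.1, 30.5 and 88.8 RPM in irradiated hearts. The highest value was that of irradiated replicate 3, and the log2 change of 2.14 (SE 0.33, limma adjusted p = 7.81e-06) was 1.84 without it.

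**Figure D2:**
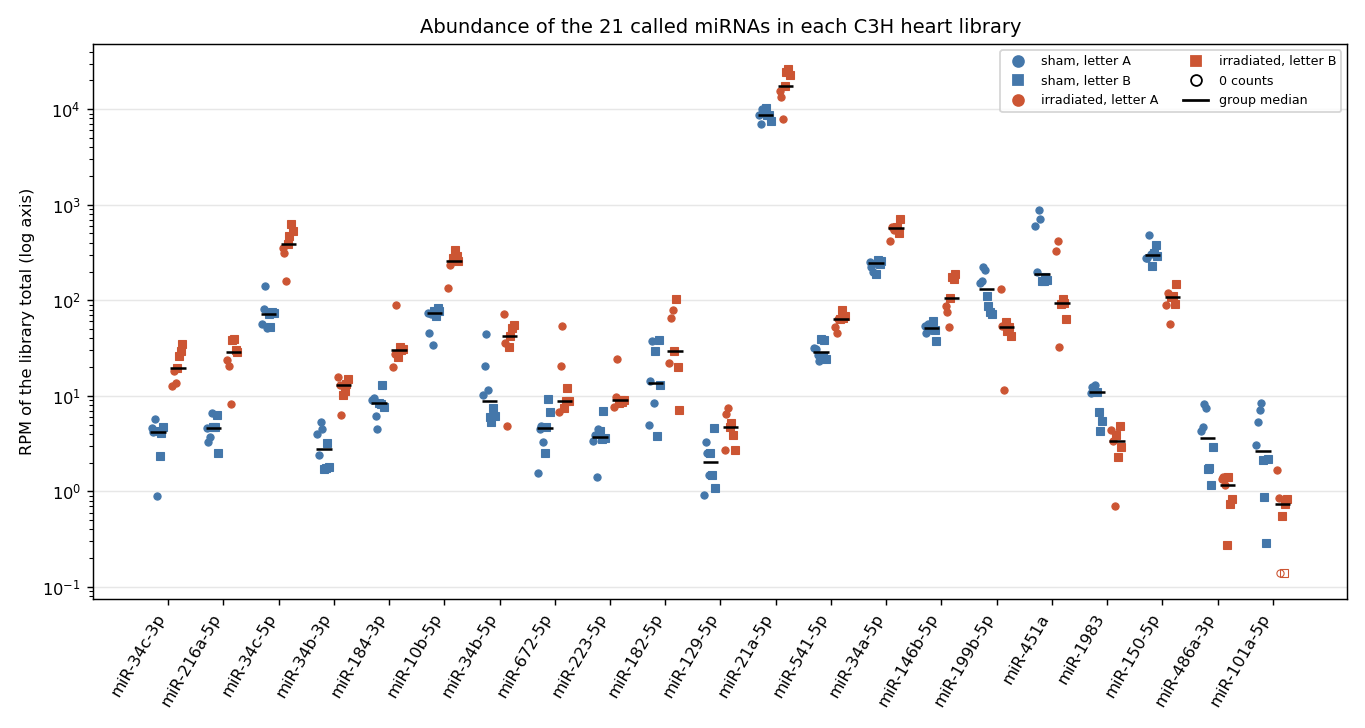
RPM of the library total (y axis, log scale) of the 21 called miRNAs in each of 15 C3H heart libraries, with circles for letter A, squares for letter B, blue for sham, orange for irradiated and black bars for group medians; open symbols mark libraries with 0 counts, drawn at the foot. The groups are separate for miR-34c-3p, miR-216a-5p, miR-34c-5p, miR-34b-3p, miR-184-3p, miR-10b-5p, miR-223-5p, miR-541-5p, miR-34a-5p and miR-150-5p, and overlap for the other 11.

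The imprinted Dlk1-Dio3 locus encodes a large miRNA cluster that is active in embryonic and regenerating tissue. Of 24 tested members, 6 had an adjusted p under 0.05, all higher (against 10.3% of all miRNAs), 1 of them was called, and the median log2 change was 0.31. The call was miR-541-5p (chr12:109742422-109742446, plus strand, in an intron of Mirg), at 23.2, 29.1 and 39.1 RPM in sham and 45, 64.2 and 79.3 RPM in irradiated hearts, with no overlap (log2 change 1.27, SE 0.23, limma adjusted p = 9.04e-05). The change was below the fold minimum with edgeR (1.16) and with library size alone (1.06). The others were miR-409-3p (0.94), miR-379-5p (0.90), miR-382-5p (0.80), miR-431-5p (0.54) and miR-411-5p (0.46). MiR-382-5p did not pass without irradiated replicate 3 (0.58, limma adjusted p = 0.135) or sham replicate 3 (limma adjusted p = 0.0626), which left 5 members in either case. In the letter B hearts alone 1 of the cluster's tested members had an adjusted p under 0.05.

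In the groups linked to cardiac growth, cell cycle arrest and vessels, a few members were higher and most did not pass. MiR-132-3p, a miRNA known to drive cardiomyocyte hypertrophy, was at 5.85, 11.4 and 16.7 RPM in sham and 15.1, 25.7 and 37.7 RPM in irradiated hearts (log2 change 1.10, SE 0.30, limma adjusted p = 0.0106), just below the fold minimum. It was called in 10 of 27 alternatives, edgeR and DESeq2 (1.17 each) among them. MiR-212-3p, with the same seed and a hairpin 203 bases away, changed by 0.91 (SE 0.28, limma adjusted p = 0.0191) at means of 2.39 and 3.87 RPM. With miR-24-3p (0.55, limma adjusted p = 0.0436) these made 3 of 9 tested hypertrophy-associated miRNAs higher at an adjusted p under 0.05, against 10.3% of all miRNAs. MiR-24-3p did not pass without irradiated replicate 3 (0.26, limma adjusted p = 0.0734), which left 2 of 9. Without sham replicate 3 only miR-132-3p passed, 1 of 9, and in the letter B hearts alone 0 of 9, while DESeq2 and TMM factors each gave 5 of 9 and edgeR 4 of 9. The X-linked cluster of miR-322 and miR-503, relatives of miR-15 and miR-16 that target cyclins, also holds miR-351, miR-542 and miR-450. Of its 10 tested members 3 were higher (10.3% of all miRNAs) and 0 lower, with a median of -0.01. In the letter B hearts alone 0 of 10 were higher. MiR-503-5p was at 73.7 to 103 RPM in sham and 119 to 199.7 RPM in irradiated hearts, without overlap, and its change was 0.57 (SE 0.13, limma adjusted p = 0.00244). MiR-351-5p changed by 1.01 and miR-322-5p by 0.53, and without irradiated replicate 3 or sham replicate 3 the cluster had 1 member with an adjusted p under 0.05. Of 9 angiogenesis-linked miRNAs, miR-210-3p, the main hypoxia miRNA, changed by 0.80 (SE 0.18, limma adjusted p = 0.00156) and miR-221-3p by 0.68 (SE 0.19, limma adjusted p = 0.0117), and the other 7 did not pass. These 2 of 9, against 10.3% of all miRNAs, were 1 of 9 with library size alone or in the letter B hearts alone and 0 of 9 in the letter A hearts alone.

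The last 3 higher calls depended on single libraries or on the letter. MiR-672-5p (chrX:104116228-104116250, minus strand, in an intron of Nexmif) was at 1.54, 4.58 and 9.24 RPM in sham and 6.71, 8.84 and 53.9 RPM in irradiated hearts. Its highest value was that of irradiated replicate 3, 3 of 7 irradiated hearts exceeded all sham hearts, and the change of 1.84 (SE 0.48, limma adjusted p = 0.00683) was 3.25 within letter A and 0.51 within letter B. MiR-129-5p (means of 2.24 and 4.73 RPM) changed by 1.35 (SE 0.44, limma adjusted p = 0.0269) with a value of 1.11 without irradiated replicate 3 (limma adjusted p = 0.0875). Without sham replicate 1, 3 or 4 its adjusted p was 0.071, 0.055 or 0.0626. MiR-182-5p, a sensory and epithelial cluster miRNA, was at 3.81, 13.6 and 38.1 RPM in sham and 7.11, 29.1 and 103 RPM in irradiated hearts, a wide overlap. Its change of 1.44 (SE 0.50, limma adjusted p = 0.0436) was 1.18 without irradiated replicate 3 (limma adjusted p = 0.125), and its call was lost in 16 of 26 alternatives, among them 9 of the 15 fits without 1 library.

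Of the miRNAs that fell, miR-150-5p had the smallest adjusted p of all 312. MiR-150-5p is abundant in mature B and T lymphocytes, where it represses Myb. It was at 229, 298 and 480.1 RPM in sham and 56.0, 109 and 149 RPM in irradiated hearts, so that every irradiated heart was below every sham heart. The log2 change was -1.63 (SE 0.16, limma adjusted p = 1.42e-09), -1.61 within letter A and -1.73 within letter B, and -1.55 without irradiated replicate 3. The other leukocyte markers did not pass. MiR-142a-3p had a log2 change of -0.15 (limma adjusted p = 0.749), miR-142a-5p of -0.65 (limma adjusted p = 0.238), miR-223-3p of -0.30 and miR-155-5p of 0.11. The 5 markers summed to 1065, 1618 and 10253 RPM in sham and 833, 1133 and 2656 RPM in irradiated hearts, which overlapped. Of the other lymphocyte miRNAs, miR-342-3p had a change of 0.71 (limma adjusted p = 0.03), and miR-181a-5p and miR-181b-5p did not pass. MiR-342-3p did not pass without irradiated replicate 3 (0.62, limma adjusted p = 0.0875), without sham replicate 3 (0.65, limma adjusted p = 0.0626), or with edgeR, DESeq2, TMM factors or library size alone.

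Of the 4 erythrocyte markers, 2 were lower at an adjusted p under 0.05 (6.41% of all miRNAs), with a wide spread among animals. MiR-451a (chr11:78073186-78073207, plus strand) and miR-144 are cut from hairpins 99 bases apart and are known for erythroid cells, and the hearts had been perfused with saline before freezing. MiR-451a was at 158, 186 and 882 RPM in sham and 32.5, 93.8 and 417 RPM in irradiated hearts, and 5 of 7 irradiated hearts were below all sham hearts. The 5 highest values were all from letter A hearts. Its change of -1.33 (SE 0.42, limma adjusted p = 0.026) was -1.12 without irradiated replicate 3 (limma adjusted p = 0.0875), -1.14 without sham replicate 3 (limma adjusted p = 0.0626) and -1.20 to -1.19 without sham replicate 1 or 4 or irradiated replicate 7 (limma adjusted p of 0.0656, 0.0623 and 0.0585). MiR-144-5p changed by -1.09 (SE 0.30, limma adjusted p = 0.0112), miR-144-3p by -1.40 (SE 0.63, limma adjusted p = 0.117) and miR-486a-5p by 0.16 (limma adjusted p = 0.794). The 4 erythrocyte markers summed to 608, 862 and 2740 RPM in sham and 331, 451 and 1722 RPM in irradiated hearts, and 0 of 4 had an adjusted p under 0.05 with edgeR or DESeq2. The minor arm miR-486a-3p was called lower at 4.03 against 1.03 RPM (log2 change -1.66, SE 0.40, limma adjusted p = 0.00383), on 4 to 29 counts per sham and 1 to 5 counts per irradiated library.

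**Figure D3:**
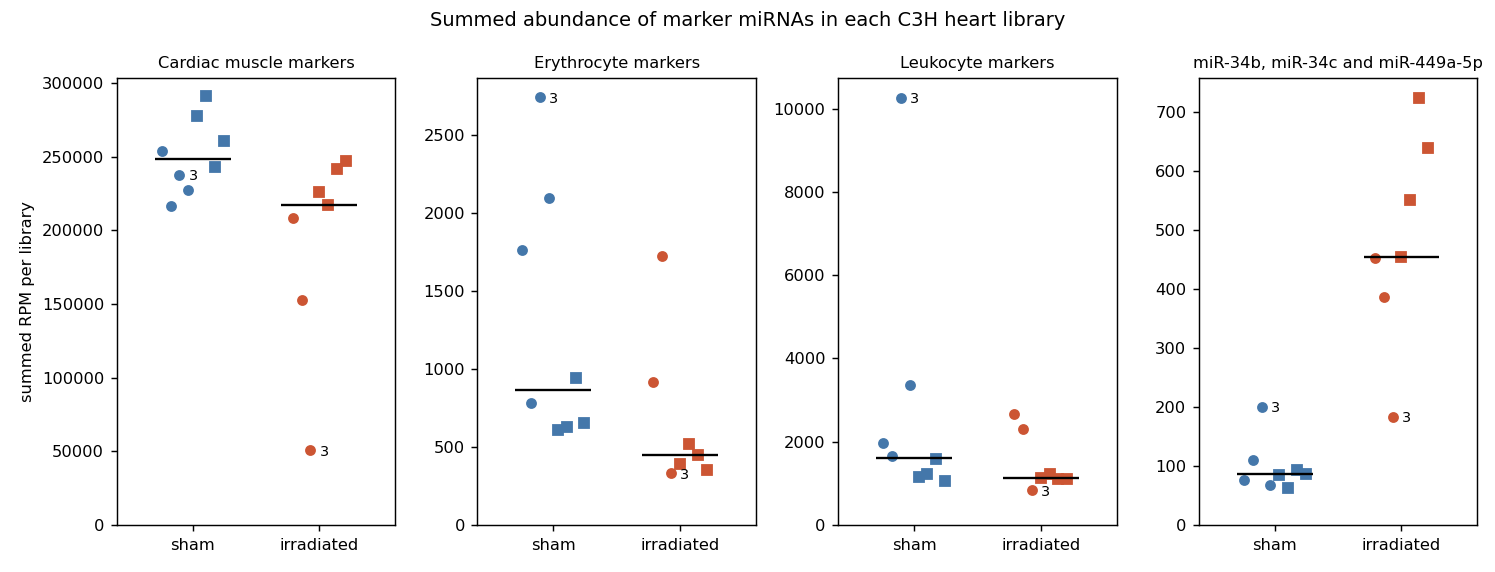
Summed RPM per library (y axes from 0) of the cardiac muscle, erythrocyte and leukocyte markers and of both arms of miR-34b and miR-34c with miR-449a-5p in sham (blue) and irradiated (orange) C3H hearts, with circles for letter A, squares for letter B, bars at the group medians and replicate 3 of each group numbered. Irradiated replicate 3 lies far below the other hearts in the muscle sum (50690 RPM), sham replicate 3 lies above the others in the leukocyte sum (10253 RPM), and the sum with miR-34b and miR-34c is higher in 6 of 7 irradiated hearts than in any sham heart.

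Of 11 tested muscle miRNAs (myomiRs), which include both arms of miR-133a, miR-208a and miR-499, 10 had a log2 change below 0. The change was above 0 for 1 of 11, against 144 of all 312 miRNAs. An adjusted p under 0.05 was reached by 3, all lower (6.41% of all miRNAs), 0 were called, and the median log2 change was -0.85 against -0.03 for all miRNAs. These were miR-208a-5p (chr14:54949107-54949128, minus strand, in an intron of Myh6, the adult cardiac myosin gene), with a change of -1.10 (SE 0.28, limma adjusted p = 0.00549), miR-499-5p, with -0.85 (SE 0.22, limma adjusted p = 0.00613), and miR-133b-3p, with -0.68 (SE 0.22, limma adjusted p = 0.0284). MiR-208a-5p was at 33.6, 66.2 and 124 RPM in sham and 9.30, 31.5 and 66.5 RPM in irradiated hearts, and the lowest value was that of irradiated replicate 3, the heart with the low muscle marker sum. MiR-1a-3p itself had a change of -0.37 (SE 0.22, limma adjusted p = 0.223), and miR-208b-3p, from the fetal and stress-induced Myh7 gene, one of 0.50 (SE 0.47, limma adjusted p = 0.44) that was not above 0 in the letter A hearts alone. Without irradiated replicate 3 the count of members lower at adjusted p under 0.05 was 2 of 11, with miR-133b-3p lost (-0.40, limma adjusted p = 0.109), and the median -0.69. Without sham replicate 3 it was 4 of 11. It was 4 of 12 in the letter A hearts alone (3 called), 0 in the letter B hearts alone, where the median was -0.51, 6 with TMM factors (1 called), 5 with edgeR (1 called) and 7 with DESeq2 (2 called).

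Other lower groups had members from stromal and cardiac miRNA families. In the miR-101 family, whose abundant 3p arm represses the histone methyltransferase Ezh2, 3 of 4 tested members were lower at adjusted p under 0.05, against 6.41% of all miRNAs. MiR-101a-5p (chr4:101346993-101347014, minus strand), the minor arm, had the largest fall of all, -2.05 (SE 0.58, limma adjusted p = 0.0116), but from few reads. It was at 0.289, 2.62 and 8.35 RPM in sham and 0, 0.733 and 1.68 RPM in irradiated hearts, with 1 to 28 counts per sham library and 0 to 5 counts per irradiated library. In the 2 irradiated hearts with 0 counts, up to 0.697 and 0.855 RPM were allowed by counting error (3 counts of the total). MiR-101c changed by -0.84 (SE 0.22, limma adjusted p = 0.00683) and miR-101b-3p by -0.59 (limma adjusted p = 0.0249), and the abundant miR-101a-3p had a change of -0.46 (SE 0.23, limma adjusted p = 0.165) at means of 12400 and 8333 RPM. Without irradiated replicate 3, 3 of 4 were still lower at adjusted p under 0.05, and 0 were in the letter B hearts alone.

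In the fibroblast-linked group of miR-199 and miR-214, 2 of 6 members were lower at adjusted p under 0.05, against 6.41% of all miRNAs. MiR-199b-5p was at 71.7, 131 and 225 RPM in sham and 11.4, 52.3 and 131 RPM in irradiated hearts (log2 change -1.26, SE 0.41, limma adjusted p = 0.0269), and without irradiated replicate 3, the lowest of all, it had a change of -0.96 (limma adjusted p = 0.109). Without sham replicate 2, 3 or 4 its adjusted p was 0.0515, 0.0545 or 0.0564. MiR-214-5p changed by -1.08 (SE 0.33, limma adjusted p = 0.0232), with a value of -0.97 without that library (limma adjusted p = 0.0634), so that 0 of 6 then passed. The 3p arms of miR-199a and miR-199b, which differ little from each other in sequence and can share reads, had changes of 0.18 and 0.20, and were not above 0 with edgeR, DESeq2 or library size alone. MiR-145a-5p, of smooth muscle, changed by -0.89 (SE 0.28, limma adjusted p = 0.025) and its cluster partner miR-143-3p by -0.22 (limma adjusted p = 0.294). MiR-145a-5p did not pass without irradiated replicate 3 (-0.74, limma adjusted p = 0.0875) or sham replicate 3 (-0.83, limma adjusted p = 0.0531), which left 0 of 3 members of the miR-143 and miR-145 group. MiR-1983 (chr13:21896930-21896950, minus strand, in no annotated host gene) fell from 4.33, 10.9 and 13.1 RPM in sham to 0.697, 3.4 and 4.88 RPM in irradiated hearts. In 5 of 7 irradiated hearts it was below all sham hearts (log2 change -1.41, SE 0.29, limma adjusted p = 0.000487). MiR-1983 did not pass in the letter B hearts alone (-1.15, limma adjusted p = 0.11).

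**Figure D4:**
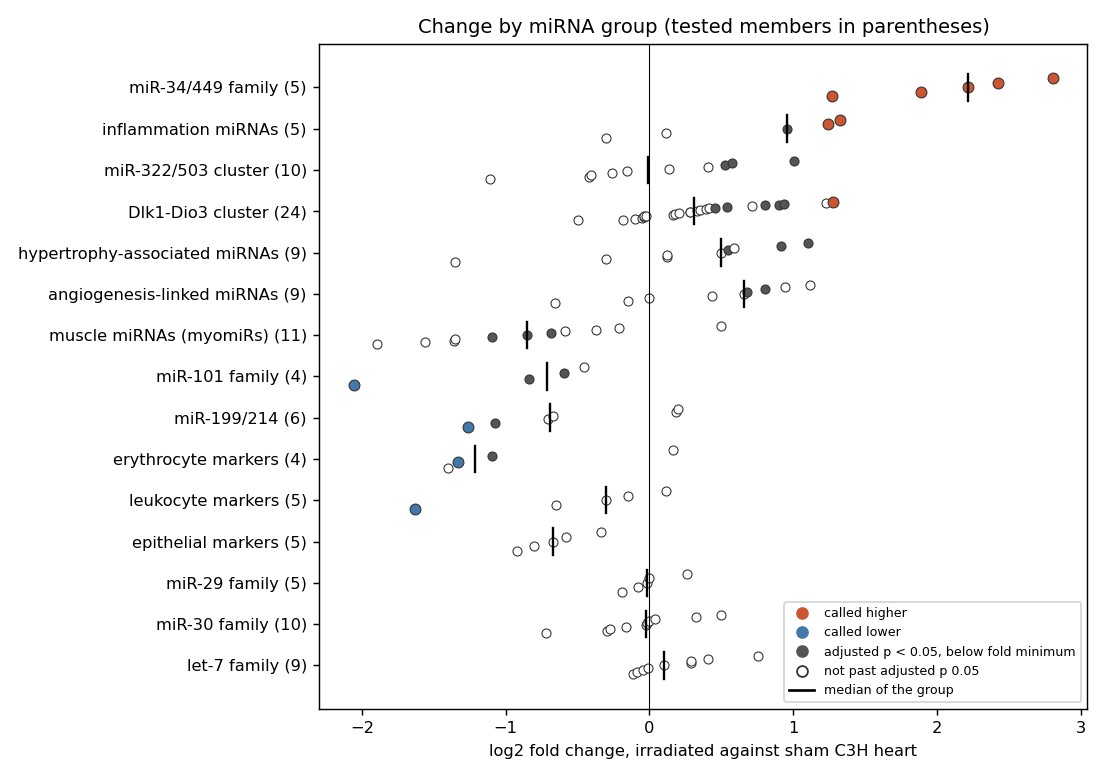
Log2 fold change (x axis, irradiated against sham C3H heart) of the tested members of 15 miRNA groups, 1 point per miRNA, with black bars at the group medians and the number of tested members in parentheses. The 5 tested members of the miR-34 and miR-449 family are all called higher, the myomiRs lie mostly below 0 with 3 of 11 past the adjusted p, and the miR-29, miR-30 and let-7 families lie around 0.

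Several groups known from cardiac injury and fibrosis held no member past the adjusted p of 0.05 in limma with quantile normalisation. These were the antifibrotic miR-29 family (0 of 5, log2 changes of -0.19 to 0.26), the miR-30 family (0 of 10, -0.72 to 0.49), the let-7 family (0 of 9, -0.12 to 0.75) and the proliferation-linked miR-17-92 and related clusters (0 of 13, -1.04 to 0.42). At adjusted p under 0.05, 2 let-7 members were higher and 2 miR-30 members lower with DESeq2, and 3 and 1 with edgeR. With TMM factors in voom 2 miR-30 members were lower, and in the letter A hearts alone 3 members of the miR-17-92 and related clusters were called (1 higher, 2 lower) and 1 let-7 member was higher. Among markers of other cells, 0 of 5 neuronal markers passed (-1.13 to -0.20), and the hepatocyte marker miR-122-5p, at 6.01 and 7.08 RPM, had a change of 0.50 (limma adjusted p = 0.451). The endothelial miR-126a-3p was the most abundant miRNA in every library, a rank at which quantile normalisation fixes its change at 0, and miR-126a-5p had a change of -0.66 (SE 0.24, limma adjusted p = 0.0545). In the group of miR-192, miR-194 and miR-215, 1 of 3 tested members, miR-194-5p, was lower (-0.62, limma adjusted p = 0.0117), against 6.41% of all miRNAs. At adjusted p under 0.05, 0 of 3 were lower in the letter A or the letter B hearts alone, and 2 of 3 with library size alone.

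The spread of the 21 calls over animals is given as a description, since the same hearts chose them. In 6 of the 7 irradiated hearts, 17 or 18 of the 21 called miRNAs lay beyond all sham hearts in the direction of the call, and in replicate 1 (letter A) 13 did. A fit without replicate 1 gave 32 calls, including all 21. The letter A hearts alone gave 38 calls (17 of the 21) and the letter B hearts alone 11 calls (10 of the 21). The difference of the change between letters was tested in a smaller fit of the C3H hearts alone, with its own count filter. In that fit 0 of 312 miRNAs were called (0%, smallest limma adjusted p = 0.25), with 55 at an unadjusted p under 0.05. These 312 were not the same set as in the main fit.

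The change was next compared with that of C57 hearts, where strain, time after WTLI and sex composition cannot be told apart. In C57 hearts 3 miRNAs were called (0.962%), among them 2 of the 21, miR-10b-5p and miR-34c-5p. MiR-150-5p, miR-21a-5p, miR-34b-3p (1.08) and miR-146b-5p also passed there in the same direction as in C3H hearts, below the fold minimum. Their limma adjusted p were 0.000312, 0.000201, 0.00537 and 0.00557. MiR-10b-5p changed by 1.89 (SE 0.26, limma adjusted p = 8.66e-06) from a mean of 49.6 to 181 RPM in C57 hearts, and the difference between strains was 0.25 (SE 0.37, limma adjusted p = 0.701). MiR-34c-5p changed by 1.25 (SE 0.30, limma adjusted p = 0.00734) in C57 against 2.43 in C3H hearts (difference 1.17, SE 0.41, limma adjusted p = 0.178). MiR-21a-5p changed by 1.08 and miR-146b-5p by 0.98 in C57 hearts, with strain differences of 0.25 and 0.26. The largest strain differences among the 21 calls were those of miR-216a-5p, 2.73 in C3H against 0.42 in C57 hearts (difference 2.31, SE 0.56, limma adjusted p = 0.0532), and miR-34c-3p, 2.80 against 0.56 (difference 2.25, SE 0.61, limma adjusted p = 0.0624). MiR-34a-5p changed by 1.27 in C3H and 0.41 in C57 hearts (difference 0.86, SE 0.22, limma adjusted p = 0.0532), and miR-150-5p by -1.63 and -0.85 (difference -0.78, SE 0.22, limma adjusted p = 0.0624). The limma test of the strain difference called 0 of 312 miRNAs (0%). An unadjusted p under 0.05 was reached by 51, and a difference that missed the threshold does not show that the strains responded alike. The strain difference was called for miR-34c-5p and miR-34c-3p with DESeq2, for 0 miRNAs with edgeR, and for miR-216a-5p with the letter as a covariate.

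Heart and lung of the same C3H animals were compared in a joint fit. In C3H lung 34 of 350 miRNAs were called (9.71%), and 8 of the 18 heart calls that were tested in lung were among them. These were miR-216a-5p, miR-10b-5p, miR-34a-5p, miR-21a-5p, miR-184-3p, miR-146b-5p, miR-541-5p and miR-129-5p, all higher in both organs. MiR-34a-5p changed by 1.57 in lung (means of 472 and 1499 RPM) and 1.27 in heart, with a difference of -0.30 (SE 0.24, limma adjusted p = 0.497). MiR-21a-5p changed by 1.5 in lung, from 21810 to 75595 RPM, with a difference of -0.39 (SE 0.52, limma adjusted p = 0.73). MiR-184-3p changed by 4.09 in lung, more than in heart (difference -1.89, SE 0.50, limma adjusted p = 0.00885).

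Of the 21 heart calls, miR-34c-5p and miR-34b-3p had the smallest adjusted p for the difference between the organs. In lung these miRNAs were far more abundant and did not pass the test. MiR-34c-5p was at means of 3642 and 3898 RPM in sham and irradiated lung, against 75.2 and 406 RPM in heart, and the change differed by 2.60 between the organs (SE 0.34, limma adjusted p = 1.24e-08). The differences were 2.58 for miR-34b-3p (SE 0.34, limma adjusted p = 1.81e-08), 2.51 for miR-34c-3p (SE 0.53, limma adjusted p = 0.000612) and 2.13 for miR-34b-5p (SE 0.47, limma adjusted p = 0.00106). MiR-150-5p changed by -0.43 in lung (limma adjusted p = 0.238) and -1.63 in heart (difference -1.30, SE 0.32, limma adjusted p = 0.00405). Of all 374 miRNAs in the joint fit, 20 were called different (5.35%), the largest difference being that of miR-7b-5p (-4.28, SE 0.47, limma adjusted p = 1.05e-10), which was not a heart call. The 20 included 7 of the heart calls that also passed the count filter in lung, among them miR-672-5p (1.87), and the same 7 were called with the animal as a block. MiR-1983 and miR-486a-3p did not pass that filter and entered the joint fit through other groups, and their values of -2.89 and -1.81 are a description only.

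**Figure D5:**
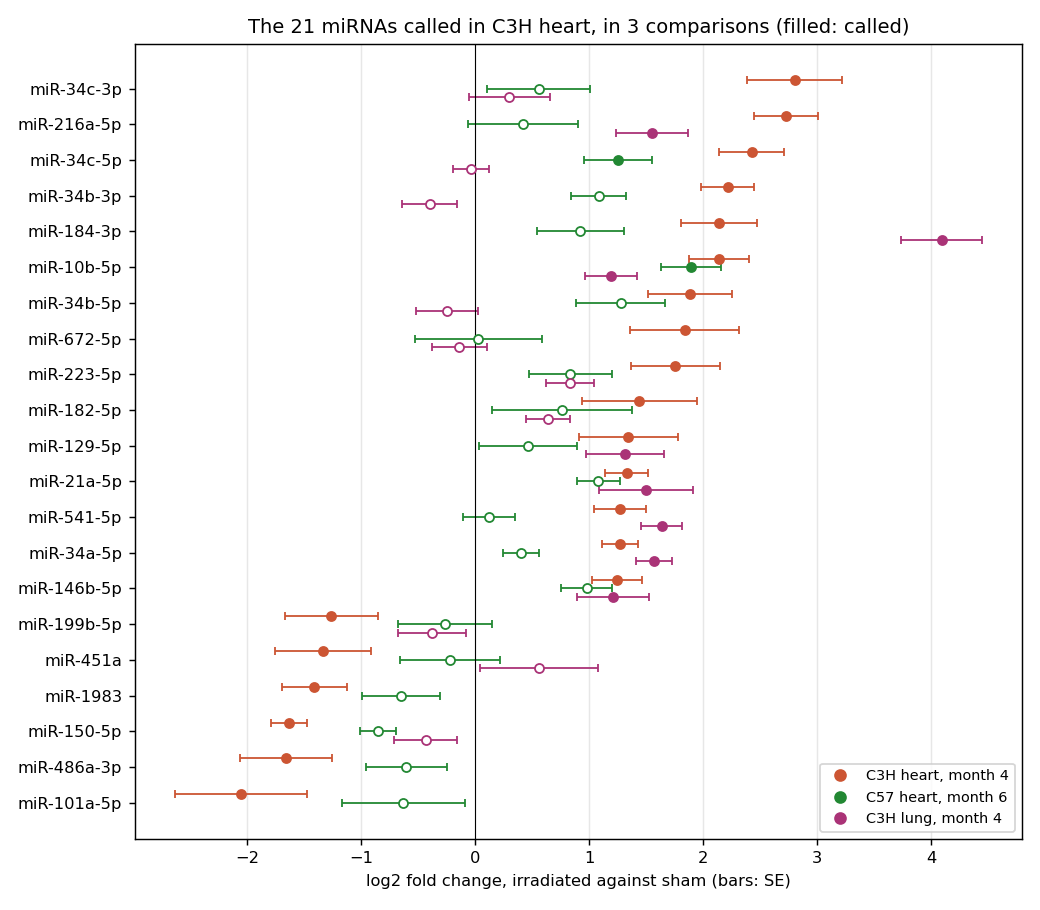
Log2 fold change with SE (x axis, irradiated against sham) of the 21 miRNAs called in C3H heart (orange), beside the same miRNAs in C57 heart (green) and C3H lung (purple), with filled points for calls in that comparison; 3 miRNAs were not tested in lung. The 4 arms of miR-34b and miR-34c are called in C3H heart and lie between -0.40 and 0.30 in C3H lung, and miR-10b-5p is called in all 3 comparisons.

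In the brain and blood cells of the C3H animals none of the heart calls that could be tested was called. This held for 18 miRNAs in brain (0 of 433 called in all, 0%), 10 in leukocytes (0 of 291, 0%) and 9 in erythrocytes (0 of 229, 0%). MiR-150-5p had log2 changes of 0.16 in brain, 0.55 in leukocytes and 0.84 in erythrocytes, with limma adjusted p of 0.997, 0.938 and 0.332.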

How the data were processed

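Small RNA libraries (QIAseq miRNA kit) of C3H hearts, 7 irradiated and 8 sham, were analysed, with C57 hearts and other C3H tissues for reference. According to the methods and the labels, reads were trimmed and aligned (mm10) by the authors in BaseSpace, who rejected runs with few miRNA reads and deposited raw counts of 1915 mature miRNAs per library. The use of molecular identifiers and the treatment of reads that fit several miRNAs are not given in the sources used here, so counting errors cover counting only.

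Low counts were removed over all 35 heart libraries by edgeR 4.0.16 (filterByExpr, minimum count 10, minimum total 15), and the rest were transformed by voom to log2 RPM with quantile normalisation, and fitted with limma 3.58.1 in R 4.3.3 with 4 groups (strain by irradiation). Tests were two-sided and adjusted by Benjamini-Hochberg over all miRNAs tested. Calls required an adjusted p below 0.05 together with a 2.25-fold difference (log2 change of 1.17). Strain differences were interaction contrasts of this fit, and the heart and lung of C3H mice were compared in a joint fit of 70 libraries with 8 groups. The quantile step sets each rank to one value, which compresses changes of the most abundant miRNAs. Totals and detected miRNAs were compared by exact permutation tests.

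Groups came from the labels. Libraries of the same group always differed by more than sampling noise (smallest chi-square per degree of freedom 39.4 over 49 pairs). Heart and lung were paired by animal number (the same animals), with a correlation of 0.06 in the block fit. The members and lists were chosen with earlier results of these data known. The miRNAs named are all 21 called, the 8 with the largest change among those past the adjusted p but below the fold minimum, list members as counts with examples, and miRNAs that share a seed with a called one. miR-503-5p, miR-210-3p and other list examples were picked after their values were seen. Fits were tested on simulated counts. The alternatives were edgeR, DESeq2 1.42.0, TMM factors or library size alone, looser and stricter filters, no fold minimum, the letter, subsets of libraries and leaving out each library. Thinning to 1944992 counts, library quality weights, the letter difference and the list counts under other settings were added after the data were seen. Sequences and positions are from RefSeq (GRCm38.p6) and host genes from GENCODE (vM21). The plasma libraries of the study were not analysed here.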

Additional observations from a re-analysis of the deposited data

Results flagged for a closer look

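In 6 of 62 groups of libraries examined, 1 library lay far from the others of its group on the normalised log2 scale, where chance gives about 1 in 20. The ratio of its gap to the whole range was 0.754 for miR-34b-5p in irradiated replicate 3 (lowest), 0.725 for miR-223-5p in irradiated replicate 3 (highest), 0.647 for miR-184-3p in irradiated replicate 3 (highest), 0.591 for miR-10b-5p in irradiated replicate 1 (lowest), 0.661 for miR-34c-3p in sham replicate 4 (lowest) and 0.623 for miR-223-5p in sham replicate 3 (lowest). Irradiated replicate 3, with 3 of the 6, was also the heart with the lowest sum of cardiac muscle markers (50690 RPM), and the part of that difference in the 3 values was not tested.

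The difference of the change between heart and lung of the C3H animals was looked up for the 29 miRNAs named for their own change, without the list examples. The test of the difference itself called 8 of them that passed the count filter in both organs. The change was larger in heart by 2.60 for miR-34c-5p, 2.58 for miR-34b-3p, 2.51 for miR-34c-3p, 2.13 for miR-34b-5p and 1.87 for miR-672-5p on the log2 scale. The heart minus lung difference was -1.30 for miR-150-5p, -1.89 for miR-184-3p and -2.04 for miR-144-5p, the last of which was not called in heart itself. MiR-1983 (-2.89) and miR-486a-3p (-1.81) did not pass the filter in lung and entered the joint fit through other groups, so their values are a description only.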

How the results depend on the processing

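None of the 29 miRNAs named for their own change changed sign in any alternative run (list examples were followed as counts only), and 7 of the 21 calls (miR-150-5p, miR-216a-5p, miR-34b-3p, miR-34c-5p, miR-10b-5p, miR-34c-3p and miR-184-3p) were kept in every alternative that tested them. MiR-182-5p lost its call in 16 of 26 alternatives, miR-451a in 12 of 27, and miR-129-5p and miR-199b-5p in 9 each. When irradiated replicate 5, 6 or 7 was left out, miR-146b-5p missed the fold minimum (1.15, 1.14 and 1.09), as did miR-541-5p when sham replicate 4 was (1.17). Against 21 calls (15 higher, 6 lower), there were 10 (7 higher, 3 lower) with at least 10 counts in every library, where 204 miRNAs could be tested, 52 without the fold minimum, 38 in letter A alone (19 higher, 19 lower) and 11 in letter B alone (10 higher, 1 lower). Leaving out each library gave 16 (without sham replicate 4) to 32 calls (without irradiated replicate 1). EdgeR and DESeq2 gave 26 calls each (17 and 18 shared with the 21), TMM factors 21, library size alone 16, the C3H hearts alone 15 and thinning 20. The strain difference had 0 calls, but 2 with DESeq2, 4 without the filter and 1 with the letter as a covariate. The heart minus lung difference had 20 calls (10 higher, 10 lower), 35 with library size alone (5 higher, 30 lower), 4 with the strict filter, 25 with TMM factors (16 higher, 9 lower), 24 with edgeR (15 higher, 9 lower) and 24 with DESeq2 (10 higher, 14 lower). With the animal as a replicate block it had 22 (11 higher, 11 lower), and the block moved the count by less than 1.5 times. The cause of these differences between settings was not tested. Counts under about 10 per library, as for miR-101a-5p and miR-486a-3p, limit the size of their changes.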

Other observations

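A few miRNAs outside the lists also had an adjusted p under 0.05 below the fold minimum in C3H heart, and were named after their values were seen. MiR-204-5p changed by -0.88 (SE 0.23, limma adjusted p = 0.00683), miR-135a-5p by -0.83 (SE 0.23, limma adjusted p = 0.0106), miR-190a-5p by -0.75 (SE 0.23, limma adjusted p = 0.0186) and miR-139-5p by -0.45 (SE 0.13, limma adjusted p = 0.0162). The passenger strand let-7c-1-3p changed by -0.53 (SE 0.17, limma adjusted p = 0.0261), and did not pass without irradiated replicate 3 (-0.44, limma adjusted p = 0.0819). MiR-103-3p changed by 0.60 (SE 0.17, limma adjusted p = 0.0112) on the normalised scale, at means of 3254 and 3482 RPM.

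For 4 called minor arms the major arm did not pass, one being miR-223-5p above. Of the others, miR-101a-3p had a log2 change of -0.46, miR-486a-5p of 0.16 and miR-199b-3p of 0.20, beside calls of -2.05, -1.66 and -1.26 for miR-101a-5p, miR-486a-3p and miR-199b-5p.

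MiR-27b-3p was higher in all 7 irradiated hearts than in any sham heart as a share of the library, at 12927 to 14282 RPM in sham and 14443 to 25561 RPM in irradiated hearts, and had a normalised log2 change of 0.12 (SE 0.11, limma adjusted p = 0.42).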
